A study of Mus musculus with 15 samples.

Results

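The genes described here are 31 genes that T cells are known for, measured in the lungs of 15 mice, 12 of which ate permethrin for 7 days. They comprise the invariant chains of the T cell receptor complex, the coreceptors, adhesion and costimulatory receptors, inhibitors, signalling proteins, transcription factors, and receptors for homing and for interleukin-7. They were found on the array through the RefSeq accession of each probe, which gave 46 probes for all 31 genes, of 23785 genes with a symbol on the array. Permethrin is a synthetic pyrethroid insecticide. The mice were females of Crlj:CD1(ICR), an outbred stock, 11 weeks old per the labels, and had either a powdered diet without permethrin (control) or the same kind of diet with 20, 500, 2500 or 5000 ppm of it. Each diet had 3 mice, called biological replicates in the labels, and each mouse gave 1 one-colour Agilent array of total lung RNA.

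The T cell receptor recognises antigen through its variable chains and signals through the CD3 chains and the zeta chain (Cd247), which carry the tyrosine motifs that the kinase Lck phosphorylates. Zap70 then binds these motifs and phosphorylates Lat, a membrane adaptor on which the later signalling proteins assemble, while CD4 or CD8 brings Lck to the receptor. Resident and circulating T cells are a minor part of the cells of a whole lung, so these transcripts are read in the RNA of all lung cells together, and fewer T cells cannot be told apart from less RNA per T cell.

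The CD3 chain genes are neighbours in the genome, and their promoters are printed here beside that of the zeta chain gene, whose signal varied from mouse to mouse in another way. Cd3d and Cd3g start 1355 bases apart on chromosome 9 and are read in opposite directions, and Cd3e starts 27825 bases from Cd3d. Cd247 is on chromosome 1. The promoter windows of RefSeq's GRCm38.p6 table, from 250 bases before to 50 bases after the start, are chr9:44981536-44981835 on the plus strand for Cd3d, chr9:44980382-44980681 on the minus strand for Cd3g, chr9:45009562-45009861 on the minus strand for Cd3e and chr1:165788431-165788730 on the plus strand for Cd247. Each is given 5′ to 3′ on the strand of its gene, with capitals for the letters of any of 5 motifs on either strand. The letters searched were CAGGAAG for ETS factors, then TGTGGT for RUNX factors, then CTTTGA for TCF and LEF factors, then AGATAA for factors of the family of Gata3, and last TATAAA for the core promoter box.
Cd3d: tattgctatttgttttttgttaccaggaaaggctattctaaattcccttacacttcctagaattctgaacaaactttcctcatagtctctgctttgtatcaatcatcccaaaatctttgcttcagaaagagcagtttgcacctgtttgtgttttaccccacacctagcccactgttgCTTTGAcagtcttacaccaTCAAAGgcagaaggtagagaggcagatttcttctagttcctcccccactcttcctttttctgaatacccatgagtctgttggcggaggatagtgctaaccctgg
Cd3g: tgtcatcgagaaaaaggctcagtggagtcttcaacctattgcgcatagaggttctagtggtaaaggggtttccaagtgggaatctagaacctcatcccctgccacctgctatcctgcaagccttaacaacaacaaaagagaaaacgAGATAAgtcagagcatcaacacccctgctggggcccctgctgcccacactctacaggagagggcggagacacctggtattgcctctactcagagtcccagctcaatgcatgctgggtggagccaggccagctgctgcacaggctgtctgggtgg
Cd3e: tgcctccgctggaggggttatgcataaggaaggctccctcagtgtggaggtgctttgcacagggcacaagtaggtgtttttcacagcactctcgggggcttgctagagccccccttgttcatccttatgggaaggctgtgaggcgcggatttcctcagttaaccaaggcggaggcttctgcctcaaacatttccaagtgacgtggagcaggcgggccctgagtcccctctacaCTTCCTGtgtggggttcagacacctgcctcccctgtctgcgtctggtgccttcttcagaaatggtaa
Cd247: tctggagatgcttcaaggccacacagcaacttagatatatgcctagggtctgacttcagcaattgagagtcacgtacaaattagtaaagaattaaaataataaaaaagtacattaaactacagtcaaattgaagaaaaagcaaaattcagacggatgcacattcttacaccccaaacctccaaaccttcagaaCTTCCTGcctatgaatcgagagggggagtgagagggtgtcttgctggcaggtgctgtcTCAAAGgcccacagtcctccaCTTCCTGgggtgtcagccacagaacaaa
The motifs differ among the 4 windows. Cd3d held the TCF/LEF letters in 2 places, Cd3g the GATA letters in 1, Cd3e the ETS letters in 1, and Cd247 the ETS letters in 2 places and the TCF/LEF letters in 1. The table has 31 windows for 22 of the T cell genes. Of these windows 32.3% held the ETS letters, against 13.3% of all 32851 windows of that length, 25.8% the TCF/LEF letters against 16%, 25.8% the core promoter box against 13.6%, 19.4% the RUNX letters against 16.8%, and 12.9% the GATA letters against 11.2%. These shares are counts of letters, several windows belong to 1 gene, and no binding was measured.

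All values below are log2 of the processed signal of a gene's brightest kept probe, scaled so that the 75th percentile of each array is 0. Such a value can be compared between mice for 1 gene, but not between genes, since probes differ in how they bind. All 31 genes had a probe well above background on all 15 arrays. Over the arrays 18 of them had a mean above 0 and 9, the dimmest, a mean below -2. Between 72.1% and 87.6% of the spots of an array were well above background, and no spot was saturated. Some arrays stood apart. Over all 34401 features kept, which are 19289 genes with a symbol and 15112 probes without one, 500 ppm mouse 3 and 2500 ppm mouse 3 were set apart on the first principal component (36.34% of the variance), and control mouse 1 and 20 ppm mouse 1 on the second (17.88%). The arrays of 500 ppm mouse 3 and 2500 ppm mouse 3 were the only ones with a Feature Extraction status of 1 in place of 0. In the deposited values, whose 75th percentile was also near 0, the median probe was at -1.94 in 500 ppm mouse 3. It was at -2.96 to -2.57 in the other mice, so dimmer probes read high over that whole array. All 12 alveolar type 2 and all 10 alveolar type 1 genes listed were measured. Of the 23785 genes with a symbol on the array 19289 were, so this by itself does not identify the tissue. The arrays lay on 2 slides, with the control and 20 ppm mice and 500 ppm mice 1 and 2 on slide 1 and all others on slide 2, so that slide and dose cannot be told apart for 2500 and 5000 ppm against control.

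No T cell gene passed an adjusted p of 0.05 in any of the 6 contrasts made or in the F test over the 5 diets (limma, Benjamini-Hochberg over the 34401 features). The smallest adjusted p among the 31 genes was 1 at 20 ppm, 0.941 at 500 ppm, 0.376 at 2500 ppm and 0.817 at 5000 ppm. It was 0.721 between 5000 and 2500 ppm, 0.251 for the trend over the dose ranks and 0.745 for the F test. Of all features 0% passed at 20, 500 and 2500 ppm and between the top doses, 0.0407% at 5000 ppm, 0.142% on the trend and 0.0407% in the F test. At an unadjusted p under 0.05, 3 T cell genes were lower at 20 ppm (0.968% of all features were lower at that p), 4 at 2500 ppm (2.98%) and 3 at 5000 ppm (2.1%), and 0 differed in either direction at 500 ppm (2.83%). There were also 2 higher at 5000 than at 2500 ppm (1.79%), 3 falling on the trend (3.45%) and 4 in the F test (5.34%).

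The signs leaned to one side. At 2500 ppm 30 of the 31 differences from control were below 0, against 42.7% of all features, with a median of -0.30 against 0.05. At 5000 ppm 26 were below 0 (39.3% of all features), with a median of -0.17 against 0.07, which was -0.04 without 5000 ppm mouse 2. At 20 ppm 29 were below 0 (55.5% of all features), with a median of -0.27 against -0.02. That lean at the lowest dose rested largely on 1 animal: without 20 ppm mouse 1 the median was -0.04 and 17 of 31 were below 0. The median of all features was then 0.04. At 500 ppm 10 were below 0 (29.5% of all features), with a median of 0.07 against 0.12, and without 500 ppm mouse 3 the median was -0.0036. Scaling to the array median in place of the 75th percentile turned both medians at 500 ppm, to -0.16 for the T cell genes and -0.11 for all features. The 4 comparisons share the control mice, and the members share cells, so these counts describe the list and are no test of it. Of the features with a gene symbol alone, 51.8%, 29.8%, 43.6% and 34.3% were below 0 at 20, 500, 2500 and 5000 ppm. Leaving out 1 array moved the difference of 21 of the 31 genes at 2500 ppm, and of 28 at 5000 ppm, by over 1.5 times for at least 1 choice of array.

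**Figure D1:**
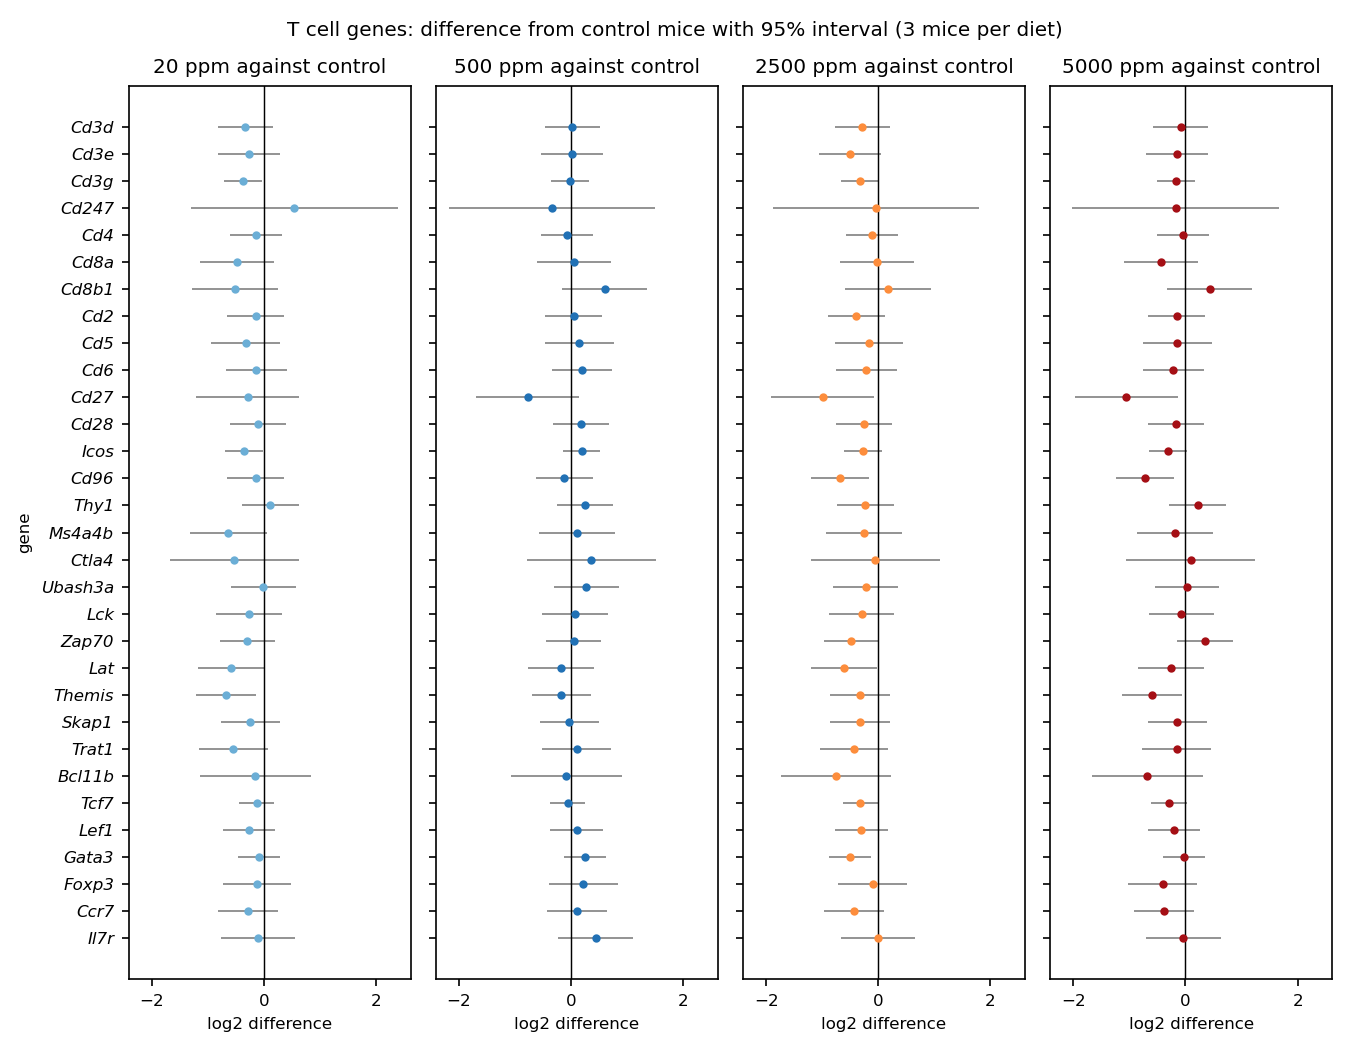
Log2 difference from the control mice for each T cell gene (rows) at the 4 doses (panels), with the point at the estimate and the bar at its 95% interval from limma, 3 mice per diet. Most points lie below 0 at 20, 2500 and 5000 ppm, with medians of -0.27, -0.30 and -0.17, and at 500 ppm they lie around 0.07.

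All 3 mice read below all 3 controls for 11 of the 31 genes at 2500 ppm (4.74% of all features), 6 at 20 ppm (4.31%), 5 at 5000 ppm (4.99%) and 0 at 500 ppm (2.14%). The 11 genes at 2500 ppm were Cd3d, Cd3g, Cd28, Cd96, Zap70, Lat, Skap1, Trat1, Tcf7, Gata3 and Ccr7, and they were picked out by their values. Summed over the 31 genes, the scaled signal was 85.2 to 100 in the controls, 61.7 to 95.1 at 20 ppm and 93.6 to 98.4 at 500 ppm. It was 70.6 to 77.3 at 2500 ppm, below every control, and 73.6 to 93.3 at 5000 ppm, which overlapped them. The brightest probes weigh most in such a sum.

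**Figure D2:**
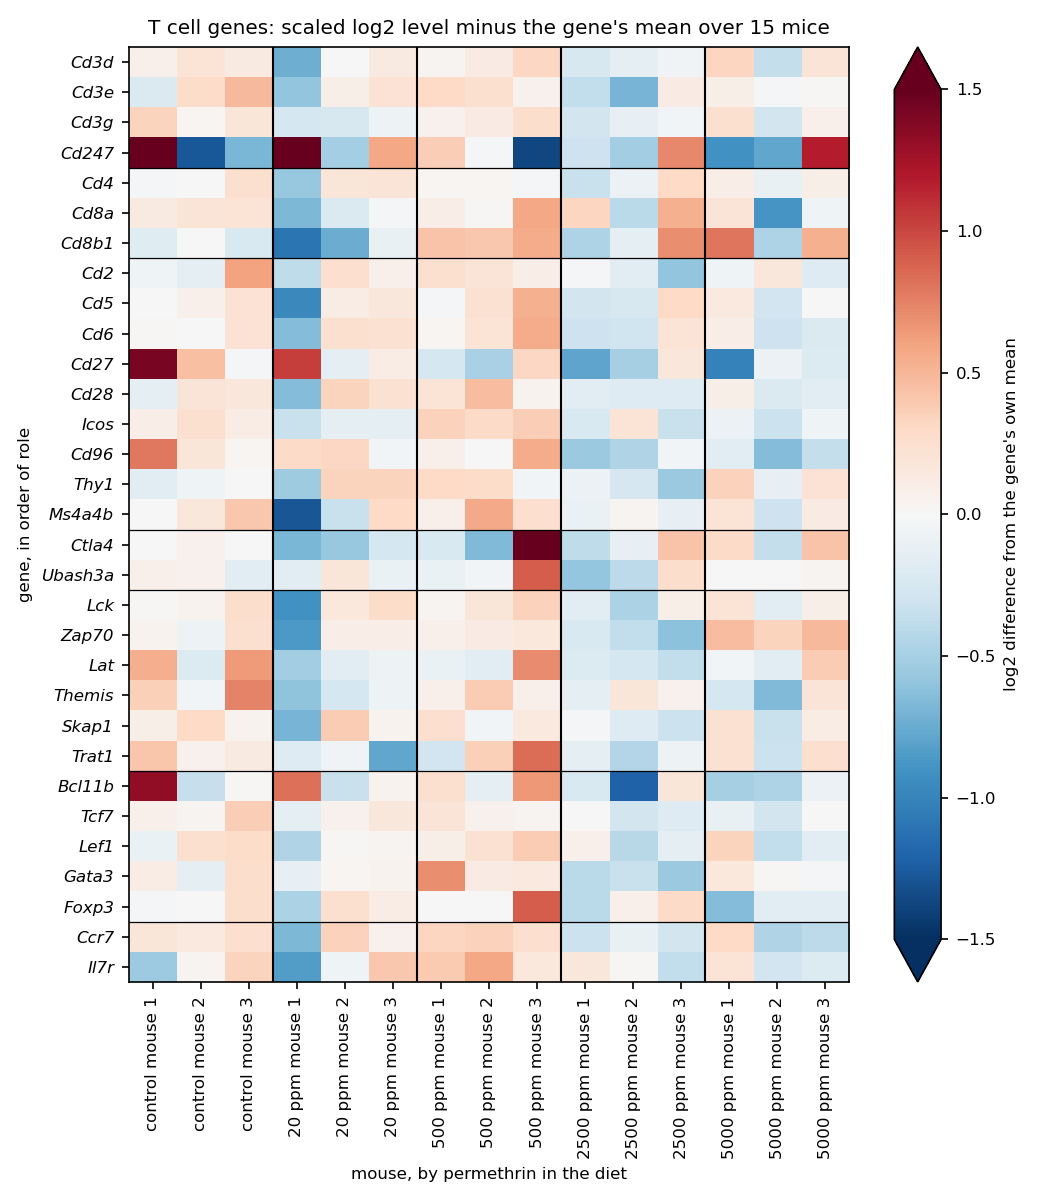
Scaled log2 signal of each T cell gene (rows, in order of role) in each mouse (columns, by diet) minus that gene's mean over the 15 mice, with red above and blue below the mean. The column of 20 ppm mouse 1 is blue for most rows (it was the lowest of 15 for 16 of 31 genes), 500 ppm mouse 3 was the highest for 11, and Cd247 does not follow its neighbours.

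The receptor complex came first in the comparison. Cd3e, the CD3 epsilon chain that every T cell receptor needs to reach the surface, read 2.66, 3.15 and 3.37 in the controls, 2.29, 2.97 and 3.097 at 20 ppm, 3.18, 3.12 and 2.94 at 500 ppm, 2.505, 2.18 and 3.00 at 2500 ppm and 2.97, 2.87 and 2.90 at 5000 ppm. The 20 ppm range and the 2500 ppm range reached lower than any control, but both overlapped the controls. Its difference at 2500 ppm was -0.50 ± 0.25 (SE, 95% interval -1.05 to 0.05, adjusted p = 0.649) and at 5000 ppm -0.15 ± 0.25 (95% interval -0.70 to 0.40). A dimmer Cd3e probe differed by -0.44 at 2500 ppm and by -0.51 at 5000 ppm. All 5000 ppm mice were below the controls on that probe (adjusted p = 0.979, limma on every probe). Without the 4 arrays set apart, which are control and 20 ppm mouse 1 and 500 and 2500 ppm mouse 3, Cd3e at 2500 ppm was -0.92, with an adjusted p of 0.0335 by limma on 11 mice. It was the only T cell gene called at that dose under this setting, in which 0.471% of all features were called lower, and its adjusted p over all settings ran from 0.0335 to 1.

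Cd3g, the CD3 gamma chain, read 0.98, 0.67 and 0.82 in the controls, 0.38, 0.40 and 0.56 at 20 ppm, 0.71, 0.77 and 0.91 at 500 ppm, 0.36, 0.52 and 0.60 at 2500 ppm and 0.88, 0.36 and 0.72 at 5000 ppm. All 20 ppm and all 2500 ppm mice were below the controls, while 5000 ppm mice 1 and 3 were among the controls. The differences were -0.37 ± 0.16 at 20 ppm (unadjusted p = 0.0337, adjusted p = 1), the second smallest p of the list at that dose, and -0.33 ± 0.16 at 2500 ppm (adjusted p = 0.617). Cd3d, the delta chain, read 2.60, 2.73 and 2.67 in the controls, 1.79, 2.53 and 2.66 at 20 ppm, 2.57, 2.64 and 2.83 at 500 ppm, 2.29, 2.39 and 2.47 at 2500 ppm and 2.84, 2.17 and 2.72 at 5000 ppm. Its 2500 ppm mice were below every control by a narrow margin, with a difference of -0.28 ± 0.23 (adjusted p = 0.838). A second Cd3d probe gave values 0.84 to 1.20 lower in every mouse. The gap between the probes thus varied less than the gene did between mice, from 1.79 to 2.84.

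Cd247, the zeta chain, stood apart from the other chains. It read 3.73, 0.50 and 1.09 in the controls, 3.35, 1.26 and 2.35 at 20 ppm, 2.14, 1.75 and 0.41 at 500 ppm, 1.46, 1.25 and 2.495 at 2500 ppm and 0.87, 0.99 and 2.95 at 5000 ppm. The highest mice were control mouse 1 and 20 ppm mouse 1, and the lowest was 500 ppm mouse 3, so the range within the control diet alone spanned almost the whole range of the 15 mice. Its difference at 5000 ppm was -0.17 ± 0.85 with a 95% interval of -2.01 to 1.67, which bounds a change only loosely. Without control mouse 1 it was 0.81. The 2 other probes of Cd247, for other transcript variants, were dim, between -4.70 and -1.46, and both were highest in 500 ppm mouse 3, where the brightest was lowest.

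Among the coreceptors, Cd4, which marks helper T cells and is also made by some myeloid cells, read 2.05, 2.07 and 2.31 in the controls, 1.501, 2.25 and 2.26 at 20 ppm, 2.09, 2.10 and 2.04 at 500 ppm, 1.73, 1.99 and 2.37 at 2500 ppm and 2.17, 1.96 and 2.16 at 5000 ppm. Every diet overlapped the controls, and the difference at 5000 ppm was -0.04 ± 0.21 (95% interval -0.51 to 0.42). Cd8a, the alpha chain of the CD8 coreceptor of cytotoxic T cells, read -2.40, -2.34 and -2.33 in the controls, -3.21, -2.74 and -2.54 at 20 ppm, -2.43, -2.52 and -1.95 at 500 ppm, -2.21, -2.93 and -2.0 at 2500 ppm and -2.34, -3.42 and -2.60 at 5000 ppm. Its probe was dim, the 20 ppm mice were all below the controls, and 5000 ppm mouse 2 was the lowest of all mice, with a difference at 5000 ppm of -0.43 ± 0.30 (adjusted p = 0.966). Without that mouse it was -0.12, and with normexp background correction -0.041. That correction added an offset of 50 to every signal before log2, which by itself shrinks the differences of dim probes. The effect of the correction apart from the offset was not tested.

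Cd8b1, the CD8 beta chain, pairs with Cd8a on conventional cytotoxic T cells and was the member with the highest differences at the upper doses. It read 0.21, 0.39 and 0.16 in the controls, -0.71, -0.36 and 0.28 at 20 ppm, 0.81, 0.79 and 0.94 at 500 ppm, -0.07, 0.26 and 1.08 at 2500 ppm and 1.19, -0.07 and 0.93 at 5000 ppm. All 500 ppm mice were above all controls (4.54% of all features), 20 ppm mouse 1 was the lowest of the 15, and the 2500 and 5000 ppm mice lay on both sides of the controls. The differences were 0.60 ± 0.35 at 500 ppm (unadjusted p = 0.115, adjusted p = 0.941), 0.17 ± 0.35 at 2500 ppm and 0.43 ± 0.35 at 5000 ppm (95% interval -0.34 to 1.19). The 2 chains of the coreceptor had differences of opposite sign at 5000 ppm, and whether they differed from each other was not tested.

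The signalling proteins act downstream of the receptor. Lck, the kinase that starts receptor signalling, read 2.76, 2.79 and 3.01 in the controls, 1.83, 2.90 and 3.01 at 20 ppm, 2.78, 2.93 and 3.08 at 500 ppm, 2.58, 2.26 and 2.83 at 2500 ppm and 2.94, 2.57 and 2.83 at 5000 ppm. The lowest mouse was 20 ppm mouse 1 and the next lowest 2500 ppm mouse 2, and every diet overlapped the controls. The differences were -0.30 ± 0.27 at 2500 ppm and -0.07 ± 0.27 at 5000 ppm (95% interval -0.66 to 0.51). A dimmer Lck probe differed by -0.92 at 2500 ppm, where all mice were below the controls (adjusted p = 0.508, limma on every probe). The size of that difference leans on control mouse 1, at -2.17 against -3.65 and -3.36 in the other controls. The 2500 ppm mice read -4.02, -4.21 and -3.73 on it. At 5000 ppm that probe differed by -0.29.

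Zap70, the kinase that docks on the phosphorylated receptor chains, read 1.40, 1.27 and 1.59 in the controls, 0.48, 1.45 and 1.45 at 20 ppm, 1.42, 1.47 and 1.497 at 500 ppm, 1.12, 0.98 and 0.73 at 2500 ppm and 1.81, 1.67 and 1.83 at 5000 ppm. All 2500 ppm mice were below all controls and all 5000 ppm mice above all controls, which held for no other T cell gene. Of all features 12.9% had every 5000 ppm mouse above the controls. The difference was -0.48 ± 0.23 at 2500 ppm (adjusted p = 0.611), 0.35 ± 0.23 at 5000 ppm (adjusted p = 0.966) and 0.83 ± 0.23 between the 2 doses (95% interval 0.34 to 1.32, unadjusted p = 0.00313, adjusted p = 0.721), the smallest p of the list in that contrast. The 2 top doses lie on the same slide. Within that slide alone the smallest adjusted p of the list was 0.634, and without the 4 arrays set apart the Zap70 difference was 0.72 with an adjusted p of 0.0262 by limma, where 1.46% of all features were called higher. A dimmer Zap70 probe differed by 0.53 between the 2 doses and by -0.85 from control at 2500 ppm, both in the direction of the brighter probe. It differed by -0.32 from control at 5000 ppm, against 0.35 for the brighter one. Both of its differences from control lean on control mouse 1, at -0.23 against -2.26 and -2.14 in the other controls. The dimmer probe read -2.57, -2.71 and -1.91 at 2500 ppm and -2.055, -2.02 and -1.515 at 5000 ppm. All 5000 ppm mice were thus above those other controls.

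Lat, the adaptor phosphorylated by Zap70, read -0.44, -1.18 and -0.34 in the controls, -1.497, -1.15 and -1.06 at 20 ppm, -1.08, -1.14 and -0.27 at 500 ppm, -1.19, -1.24 and -1.35 at 2500 ppm and -1.02, -1.15 and -0.59 at 5000 ppm. The 2500 ppm mice lay just below the lowest control, which itself was far from the other controls. The difference was -0.61 ± 0.27 at 2500 ppm (unadjusted p = 0.0447, adjusted p = 0.57) and -0.26 ± 0.27 at 5000 ppm. Themis, which tunes receptor signals during T cell development, read -3.48, -3.89 and -3.103 in the controls, -4.45, -4.11 and -3.92 at 20 ppm, -3.76, -3.47 and -3.76 at 500 ppm, -3.99, -3.67 and -3.79 at 2500 ppm and -4.11, -4.51 and -3.66 at 5000 ppm. All 20 ppm mice were below the controls and 5000 ppm mouse 2 was the lowest of all mice. Its difference of -0.67 ± 0.25 at 20 ppm had the smallest p of the list there (unadjusted p = 0.0172, adjusted p = 1), and at 5000 ppm it was -0.60 ± 0.25 (adjusted p = 0.928). With normexp background correction, whose offset shrinks the differences of dim probes, the difference at 5000 ppm was -0.01. Skap1 and Trat1, adaptor proteins of T cells, had differences of -0.33 ± 0.24 and -0.43 ± 0.28 at 2500 ppm and of -0.15 ± 0.24 and -0.16 ± 0.28 at 5000 ppm.

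Of the transcription factors, Gata3, which drives the T helper type 2 programme and is also made by innate lymphoid cells, had the smallest p of the list at 2500 ppm. It read 2.19, 1.94 and 2.35 in the controls, 1.96, 2.11 and 2.13 at 20 ppm, 2.78, 2.21 and 2.23 at 500 ppm, 1.68, 1.75 and 1.53 at 2500 ppm and 2.24, 2.10 and 2.06 at 5000 ppm. All 2500 ppm mice were below every mouse of every other diet, and the 5000 ppm mice lay within the range of the controls. The difference was -0.51 ± 0.17 at 2500 ppm (95% interval -0.88 to -0.13, unadjusted p = 0.012, adjusted p = 0.376), -0.03 ± 0.17 at 5000 ppm (95% interval -0.41 to 0.34) and 0.48 ± 0.17 between the doses (unadjusted p = 0.0168, adjusted p = 0.872).

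Bcl11b, which commits precursors to the T lineage, read -1.92, -3.59 and -3.24 in the controls, -2.42, -3.59 and -3.20 at 20 ppm, -3.02, -3.39 and -2.60 at 500 ppm, -3.48, -4.46 and -3.07 at 2500 ppm and -3.75, -3.71 and -3.33 at 5000 ppm. Control mouse 1 and 20 ppm mouse 1 were the highest of the 15, and 2500 ppm mouse 2 was the lowest. The differences were -0.75 ± 0.46 at 2500 ppm and -0.68 ± 0.46 at 5000 ppm (95% interval -1.67 to 0.31, adjusted p = 0.966), and the controls alone ran from -3.59 to -1.92. Without control mouse 1 the differences were -0.25 and -0.18, and with normexp background correction -0.15 and -0.10. Tcf7, which encodes the naive and memory T cell factor TCF-1, read -0.20, -0.23 and 0.09 in the controls, -0.42, -0.22 and -0.11 at 20 ppm, -0.08, -0.21 and -0.24 at 500 ppm, -0.28, -0.55 and -0.47 at 2500 ppm and -0.38, -0.55 and -0.28 at 5000 ppm. All 2500 and all 5000 ppm mice were below the controls, with differences of -0.32 ± 0.15 (adjusted p = 0.589) and -0.29 ± 0.15 (adjusted p = 0.963). A second Tcf7 probe differed in the same direction, by -0.23 and -0.27, but overlapped the controls at both doses. It read -0.37, -0.89 and -0.70 in the controls, -0.82, -1.045 and -0.78 at 2500 ppm and -0.81, -1.21 and -0.75 at 5000 ppm.

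Lef1, a relative of Tcf7 found in naive T cells, read 1.12, 1.45 and 1.49 in the controls, 0.76, 1.23 and 1.26 at 20 ppm, 1.30, 1.45 and 1.60 at 500 ppm, 1.29, 0.80 and 1.06 at 2500 ppm and 1.54, 0.84 and 1.04 at 5000 ppm. Each diet overlapped the controls, and the difference at 5000 ppm was -0.21 ± 0.21 (95% interval -0.67 to 0.26). Foxp3, which defines regulatory T cells, read -3.22, -3.18 and -2.93 in the controls, -3.67, -2.95 and -3.08 at 20 ppm, -3.19, -3.20 and -2.28 at 500 ppm, -3.60, -3.12 and -2.91 at 2500 ppm and -3.84, -3.35 and -3.36 at 5000 ppm on a dim probe. The highest mouse was 500 ppm mouse 3, and the 5000 ppm mice were all below the controls, with a difference of -0.41 ± 0.28 (adjusted p = 0.966). With normexp background correction that difference was 0.03.

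Ccr7, which guides naive and central memory T cells into lymph nodes, read 2.75, 2.71 and 2.82 in the controls, 1.89, 2.91 and 2.64 at 20 ppm, 2.89, 2.91 and 2.82 at 500 ppm, 2.25, 2.46 and 2.30 at 2500 ppm and 2.86, 2.11 and 2.17 at 5000 ppm. The 2500 ppm mice were all below the controls, and at 5000 ppm mouse 1 was above them with the other two below. The differences were -0.43 ± 0.25 at 2500 ppm (adjusted p = 0.71) and -0.38 ± 0.25 at 5000 ppm (adjusted p = 0.966). Il7r, the receptor for interleukin-7 on which naive T cells depend for survival, read 1.61, 2.20 and 2.49 in the controls, 1.32, 2.10 and 2.56 at 20 ppm, 2.56, 2.74 and 2.32 at 500 ppm, 2.33, 2.17 and 1.78 at 2500 ppm and 2.36, 1.87 and 1.96 at 5000 ppm. Its controls spread widely and every diet overlapped them, with a difference of -0.04 ± 0.31 at 5000 ppm (95% interval -0.70 to 0.63).

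Costimulatory receptors came next. Cd28, the main costimulatory receptor of naive T cells, read -0.49, -0.17 and -0.18 in the controls, -1.005, -0.02 and -0.12 at 20 ppm, -0.14, 0.11 and -0.30 at 500 ppm, -0.52, -0.55 and -0.55 at 2500 ppm and -0.27, -0.57 and -0.53 at 5000 ppm. The 2500 ppm mice were below the controls by a narrow margin, with a difference of -0.26 ± 0.23 (adjusted p = 0.868). Icos, a receptor of the same family on activated T cells, read -0.21, -0.06 and -0.19 in the controls, -0.64, -0.46 and -0.43 at 20 ppm, 0.05, -0.02 and 0.07 at 500 ppm, -0.53, -0.10 and -0.63 at 2500 ppm and -0.39, -0.63 and -0.37 at 5000 ppm. All 20 ppm and all 5000 ppm mice were below the controls and all 500 ppm mice above them, with differences of -0.35 ± 0.15, -0.31 ± 0.15 and 0.19 ± 0.15 and adjusted p values of 1, 0.963 and 0.941.

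Cd27, a costimulatory receptor of the tumour necrosis factor receptor family, read -2.06, -3.03 and -3.50 in the controls, -2.45, -3.62 and -3.38 at 20 ppm, -3.75, -3.97 and -3.17 at 500 ppm, -4.27, -3.98 and -3.32 at 2500 ppm and -4.50, -3.58 and -3.69 at 5000 ppm. Control mouse 1 and 20 ppm mouse 1 were the highest of the 15, and the 5000 ppm mice were all below the controls. The difference was -0.77 ± 0.42 at 500 ppm (unadjusted p = 0.0932, adjusted p = 0.941), -0.99 ± 0.42 at 2500 ppm (adjusted p = 0.533) and -1.06 ± 0.42 at 5000 ppm (adjusted p = 0.928). It was the lowest difference of the list at the 2 top doses. Without control mouse 1 the Cd27 difference was -0.59 at 2500 ppm and -0.65 at 5000 ppm. Cd96, a receptor for nectin-like ligands on T and NK cells, read -1.70, -2.32 and -2.46 in the controls, -2.21, -2.18 and -2.53 at 20 ppm, -2.42, -2.49 and -1.94 at 500 ppm, -3.05, -2.94 and -2.54 at 2500 ppm and -2.67, -3.14 and -2.85 at 5000 ppm. All 2500 and all 5000 ppm mice were below all controls, and control mouse 1 was the highest.

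The Cd96 difference was -0.68 ± 0.24 at 2500 ppm (unadjusted p = 0.0129, adjusted p = 0.38) and -0.72 ± 0.24 at 5000 ppm (unadjusted p = 0.00932, adjusted p = 0.817). On the trend over the dose ranks Cd96 and Cd27 had the smallest p of the list, with slopes of -0.20 ± 0.05 and -0.28 ± 0.09 per rank (adjusted p = 0.251 and 0.407). Without control mouse 1 the Cd96 difference was -0.45 at 2500 ppm and -0.49 at 5000 ppm. Both probes are dim, and with normexp background correction the differences at 5000 ppm were -0.23 for Cd96 and -0.25 for Cd27, smaller and in the same direction.

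The rest of the adhesion group gave no difference past the threshold either. Cd2, which binds CD48 on the partner cell, had differences of -0.39 ± 0.23 at 2500 ppm and -0.16 ± 0.23 at 5000 ppm. Cd5 and Cd6, related receptors that damp receptor signalling, had -0.15 ± 0.28 and -0.22 ± 0.25 at 5000 ppm. Thy1, a surface glycoprotein of mouse T cells that fibroblasts also make, had -0.23 ± 0.23 at 2500 ppm and 0.22 ± 0.23 at 5000 ppm, and Ms4a4b, a tetraspanning protein of T cells, -0.26 ± 0.31 and -0.19 ± 0.31.

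Among the inhibitors, Ctla4, the checkpoint receptor that competes with Cd28 for its ligands, read -3.23, -3.17 and -3.23 in the controls, -3.92, -3.80 and -3.50 at 20 ppm, -3.47, -3.90 and -1.17 at 500 ppm, -3.62, -3.36 and -2.81 at 2500 ppm and -2.95, -3.59 and -2.81 at 5000 ppm. The value of 500 ppm mouse 3 was far above that of any other mouse, the next being -2.81, and the 20 ppm mice were all below the controls. The difference was -0.05 ± 0.53 at 2500 ppm and 0.09 ± 0.53 at 5000 ppm (95% interval -1.06 to 1.24). Ubash3a, a phosphatase-like suppressor of receptor signalling, was also highest in 500 ppm mouse 3, at -2.22 against -3.71 to -2.87 in the others. Both probes are dim, and the median of all probes was also highest on that array. With the slide as a fixed block, Ctla4, Ubash3a and Lat were called lower at 2500 ppm (-2.56, -1.20 and -1.45) and Ctla4 at 5000 ppm (-2.42, adjusted p = 0.00701, limma). Under that block 14.4% of all features were called lower at 2500 ppm and 14.1% at 5000 ppm, a larger share than the 3 and 1 of the 31 T cell genes. The block also gave 2 T cell genes called lower on the trend (15.7% of all features) and 1 in the F test (8.29%). That block is set by the 500 ppm diet alone, whose mouse 3 is its only array on slide 2.

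The control mouse 1 and 20 ppm mouse 1 arrays, set apart together over all features, read high on the dimmer probe and not on the brightest one of Ccr7, Zap70 and Lck. For Ccr7 the dimmer probe was at -0.52 in the first and -1.47 in the second of these arrays, with a range of -3.42 to -1.97 over the remaining mice, while the brighter Ccr7 probe was at 1.89 in 20 ppm mouse 1, its lowest value. The dimmer Zap70 probe measured -0.23 and -1.03 in these mice and from -2.71 to -1.51 in the others, and the dimmer Lck probe -2.17 and -2.96 against -4.21 to -3.04. The brighter probes of Zap70 and Lck were also lowest in 20 ppm mouse 1, at 0.48 and 1.83. Bcl11b and Cd27, each with 1 probe of low signal, were highest in the same mice. This did not hold for all dim probes. In 20 ppm mouse 1, the dimmer probes of Cd3e, Cd4, Tcf7 and Ubash3a and both of Cd247 ranked 7 to 15 from the top. Some of them read high in control mouse 1, with rank 2 for Cd3e, Tcf7 and 1 Cd247 probe and 4 for Cd4. Ubash3a ranked 8 there and the other dimmer Cd247 probe 9. The dimmer Cd8a probe, well above background on 6 arrays, ranked 2 and 3 in these 2 arrays, and that of Trat1 10 and 4. The brightest Cd247 probe was highest in the same 2 arrays. The median of the 9 T cell genes with a mean below -2 was 0.36 above their own means in control mouse 1 and -0.19 from them in 20 ppm mouse 1. Which of the probes follows the transcript was not tested.

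**Figure D3:**
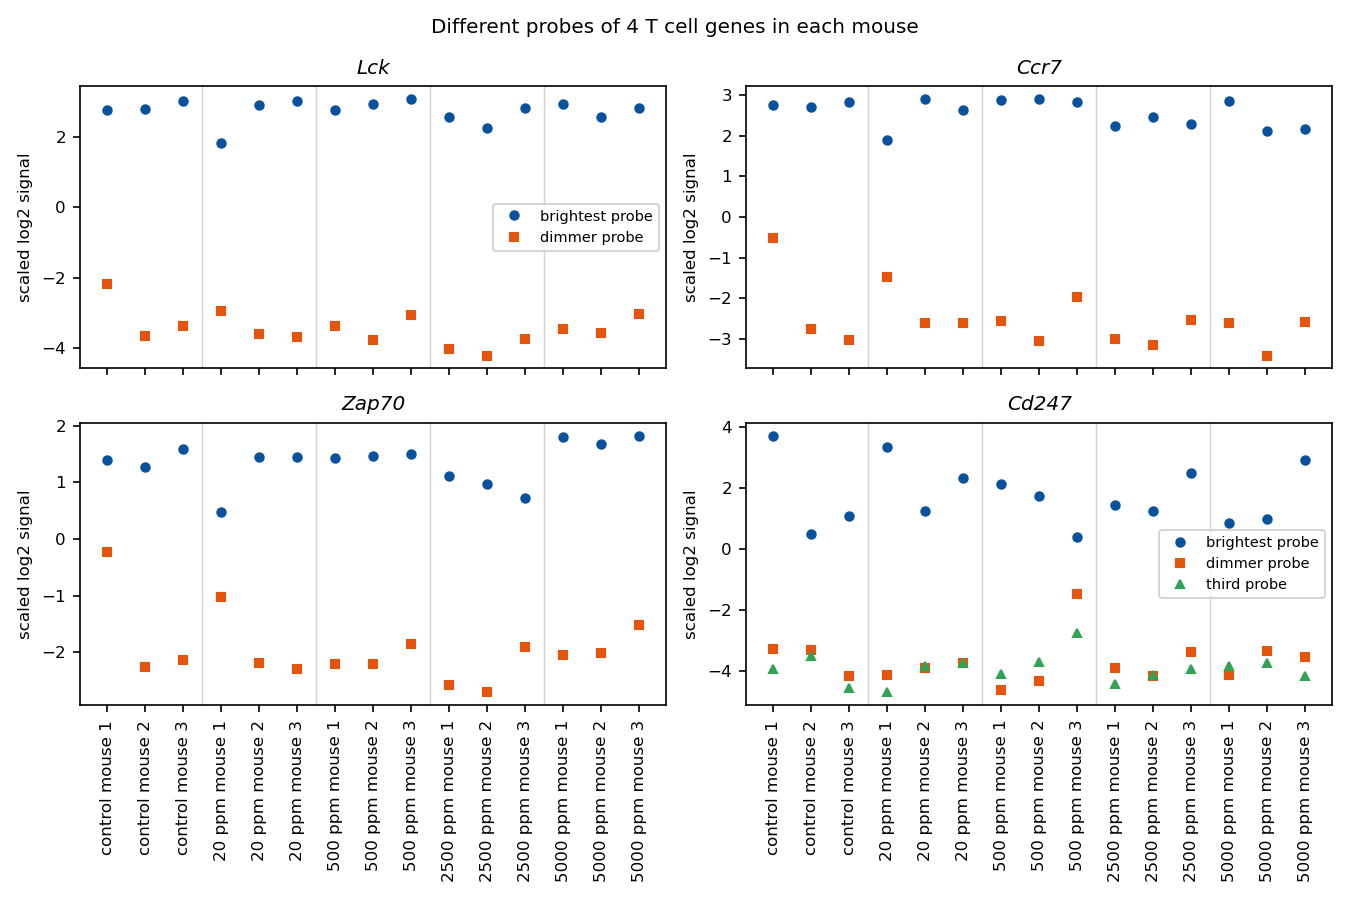
Scaled log2 signal of each kept probe of Lck, Ccr7, Zap70 and Cd247 (panels) in each mouse, with the brightest probe in blue. The dimmer probes of Lck, Ccr7 and Zap70 are highest in control mouse 1 (-2.17, -0.52 and -0.23) and next in 20 ppm mouse 1, where the brightest probes of these genes are lowest.

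Other genes of the pathway, not members, were read beside the list. Of 32 other genes of T cell receptor signalling 31 were measured and 0 passed the threshold at any dose. At 2500 ppm 29 of them were below 0, with a median of -0.22, and 2 were lower at an unadjusted p under 0.05 (limma, 2.98% of all features). At 5000 ppm 28 were below 0, with a median of -0.16. Their differences at 5000 ppm ran from -0.97 for Plcg1, the phospholipase recruited by Lat (adjusted p = 0.95), to 0.25 for Dgkz, a diacylglycerol kinase that ends the signal (adjusted p = 0.966). Of 35 other genes of T cell transcription and trafficking 25 were below 0 at 2500 ppm (median -0.17) and 22 at 5000 ppm (median -0.02), from -0.48 for Id3 to 0.67 for Ccr6. Of 19 measured genes of activation, checkpoints and cytokines 11 and 9 were below 0 (medians -0.05 and 0.05), from -0.56 for Il4 to 0.41 for Pdcd1. By the same unadjusted p, 5 of the transcription and trafficking genes and 1 of these 19 were lower at 2500 ppm.

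Markers of some other blood cells were low together with the T cell genes in 20 ppm mouse 1. In 20 ppm mouse 1, 9 of 15 NK and cytotoxic genes, 8 of 17 B cell genes and 6 of 11 monocyte and neutrophil genes were also at their lowest of the 15 mice. The median gene of these lists was at -0.94, -0.70 and -0.51 from its own mean there on the log2 scale, and the median T cell gene at -0.57. Other blood cell lists did not fall that low in any 20 ppm mouse. The dendritic cell and MHC class II median ran from 0.02 to 0.18 over the 3 mice. The innate lymphoid median ran from -0.18 to 0.12 and the alveolar macrophage median from -0.19 to 0.285. At 2500 ppm 14 of the 15 NK genes were below control, with a median of -0.49, and 15 of the 17 B cell genes, with a median of -0.40. At 5000 ppm these medians were -0.0026 and -0.24. The summed NK signal was 69.8 to 97.2 in the controls, 45.3 to 85.6 at 2500 ppm and 87.5 to 96.3 at 5000 ppm, and the summed B cell signal was 38.4 to 39.4, 21.2 to 36.5 and 24.6 to 42.5. None of these genes passed the threshold. At an unadjusted p under 0.05 (limma), 3 NK genes were lower and 1 higher at 2500 ppm, and 0 B cell genes differed (2.98% of all features were lower). The largest difference at 5000 ppm was 0.77 for Itga2 (adjusted p = 0.7) and the lowest were -0.69 for Mmp9, a neutrophil protease, and -0.57 for Fcrla, a B cell protein (adjusted p = 0.966 for both). The part of these lists in the T cell values was not tested. Not all blood cell lists leaned down at 2500 ppm. Of 10 innate lymphoid genes 7 were above control there and 3 below (median 0.10). The median of the monocyte and neutrophil list was on average 0.03 from the genes' own means at 2500 ppm, against -0.12 in the controls. That of the dendritic cell and MHC class II list was -0.14 against 0.08. Lists that mark no blood cell also leaned down at 2500 ppm, with 11 of 12 alveolar type 2 genes below 0 (median -0.28) and 9 of 12 endothelial genes (median -0.29), while 3 of 10 alveolar type 1 genes were below 0 (median 0.07).

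**Figure D4:**
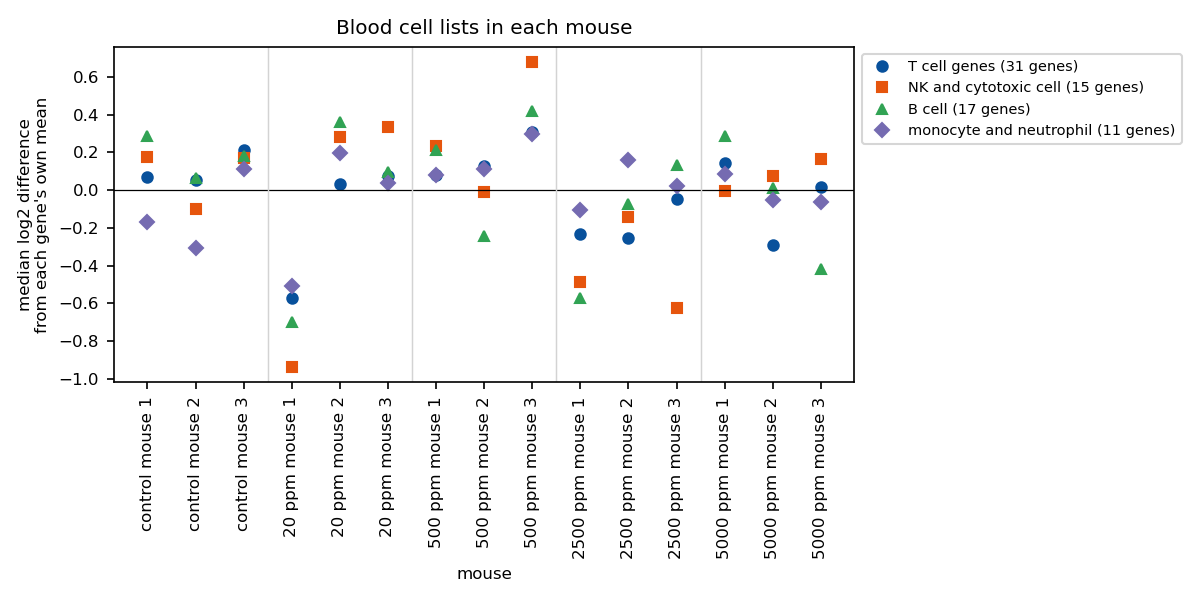
Median over a list of each gene's log2 difference from its own mean over the 15 mice, for the T cell genes and 3 lists of other blood cells (colours), in each mouse. In 20 ppm mouse 1 the 4 lists are at their lowest, between -0.94 and -0.51, and at 2500 ppm the T cell and NK medians are all below 0.

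Markers of thymus and lymph node, where T cells develop and gather, were read as well. Rag1, Rag2 and Ptcra, the defining genes of immature thymocytes, were well above background on at most 1 array, and Foxn1, the defining gene of thymic epithelium, on at most 2. The rest of these lists were measured. Dntt and Arpp21 of the thymocyte list differed from control by -0.34 and 0.24 at 5000 ppm, and Psmb11, Ccl25 and Prss16 of the epithelium list by 0.34, 0.26 and 1.03, with none past the threshold. The same 3 epithelium genes were above control at 500 ppm (median 0.62). Of the lymph node stroma list 9 of 11 genes were measured, and its summed signal was 22.9 to 29.1 in the controls, 15.5 to 22.8 at 2500 ppm and 20.8 to 27.5 at 5000 ppm. The highest 2500 ppm sum, 22.83, was just under the lowest control sum, 22.88. The stroma list shares Fcer2a and Cr2 with the B cell list, so its sum is not a reading of stroma alone. The list's median per mouse overlapped, at -0.50 to 0.14 from the genes' own means at 2500 ppm against -0.07 to 0.06 in the controls, and 6 of its 9 genes were below control (median -0.09). The summed T cell genes were also below every control at that dose, and the part of the stroma list in their values was not tested. The cardiac muscle list, which marks heart or pulmonary vein muscle taken with the lung, ran from 6.86 to 254.7 in summed signal across mice and was lowest in 2500 ppm mouse 2 and highest in 2500 ppm mouse 3.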

How the data were processed

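Total lung RNA of 15 mice was labelled with Cy3 and hybridised to 1-colour Agilent arrays, per the labels' protocols. The deposited scanner files hold the processed signal, which is background-subtracted intensity on a linear scale, and median spot and background intensity, made with Agilent Feature Extraction 10.7.3.1 per the file headers. The deposited value table holds log2 values, which differed from log2 of the processed signal by 1 constant per array and served as an alternative. The aligner of probes to genes is not given in the sources used here. The files hold no probe sequence, so none is printed.

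Here, spots of a probe were averaged (56605 probes), log2 was taken, and the 75th percentile of each array was set to 0. Kept were the 43154 probes for which every array of at least 1 diet had 50% or more of the spots well above background. For each symbol of the GRCm38.p6 table the kept probe with the highest mean was used (19289 genes), and each of 15112 kept probes without a symbol was tested by itself, which gave 34401 features. limma 3.58.1 in R 4.3.3 fitted 1 coefficient per diet over the 15 arrays, with 10 residual degrees of freedom, and p values were adjusted by Benjamini-Hochberg over all features (threshold 0.05). Intervals are at 95%. The trend is a slope per dose rank. The fit was tested on simulated data. Members, lists and tests were chosen with earlier results of these data known. Named are all 31 genes, with values for each mouse of 20 set genes and of the 2 with the smallest p in each contrast, and of other lists the largest and smallest difference at 5000 ppm. Cd3d was added for its neighbours.

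Same-numbered control and 20 ppm mice deviated together (r = 0.608, 0.257 and 0.166 over all features), but control mouse 2 with 20 ppm mouse 3 gave 0.369. The labels name no shared litter or day, and in the other comparisons the numbers did not pair.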

Additional observations from a re-analysis of the deposited data

How the results depend on the processing

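The results were recomputed under 29 alternatives, 15 of which left out 1 array, and under 5 more added after the data were seen, of which 30 to 33 applied to a given result. With only the features that have a gene symbol, no T cell gene was called in any contrast. With the replicate number as a block (the pairing), 0 T cell genes were called in every contrast, and the smallest adjusted p was 0.384 at 2500 ppm and 0.768 at 5000 ppm, so that no call changed. Calls appeared under only 2 settings. With the slide as a fixed block, limma called 3 T cell genes at 2500 ppm, 1 at 5000 ppm, 2 on the trend (Ctla4 at -0.69 and Cd96 at -0.35 per rank, adjusted p = 0.0496 for Cd96) and 1 in the F test. Without the 4 arrays set apart it called 1 at 2500 ppm and 1 between 5000 and 2500 ppm. The median at 20 ppm was -0.022 without those arrays and ran from -0.36 to -0.022 with arrays left out singly or in pairs. The median at 500 ppm was -0.16 with the array median as the scale. Of 70 gene differences followed, 24 changed sign under some setting, 1 of them with a call. With the fixed slide block the changed values were Cd247 1.5, Cd28 0.024, Thy1 0.098 and Il7r 0.32 at 2500 ppm and Cd3e 0.055, Cd247 1.37, Cd4 0.016, Cd28 0.11, Ctla4 -2.42, Ubash3a -0.95, Gata3 0.24 and Il7r 0.29 at 5000 ppm. With the slide as a random block (correlation 0.262) they were Cd247 0.45 and Il7r 0.10 at 2500 ppm and Cd247 0.32, Ctla4 -0.71, Ubash3a -0.28, Gata3 0.055 and Il7r 0.068 at 5000 ppm. With normexp they were Cd8a 0.043, Ctla4 0.14 and Foxp3 0.0031 at 2500 ppm and Trat1 0.039 and Foxp3 0.031 at 5000 ppm, with quantile normalization Cd8a 0.012 at 2500 ppm, with the mean of a gene's probes Ubash3a 0.17 at 2500 ppm and Ubash3a -0.051 at 5000 ppm, and without the 4 arrays Cd247 0.56 and Cd8b1 -0.18 at 2500 ppm and Cd247 0.81 at 5000 ppm. With 1 or 2 arrays left out, the lowest and highest differences at 2500 ppm were Cd247 -0.68 to 0.94, Cd4 -0.28 to 0.033, Cd8a -0.22 to 0.25, Cd8b1 -0.16 to 0.42, Ctla4 -0.28 to 0.13, Foxp3 -0.25 to 0.094 and Il7r -0.25 to 0.19. At 5000 ppm they were Cd3d -0.22 to 0.12, Cd3e -0.35 to 0.0017, Cd247 -0.85 to 0.81, Cd4 -0.092 to 0.040, Cd2 -0.30 to 0.078, Ctla4 -0.061 to 0.33, Ubash3a -0.054 to 0.072, Lck -0.15 to 0.035, Skap1 -0.26 to 0.025, Trat1 -0.25 to 0.032, Gata3 -0.14 to 0.065 and Il7r -0.28 to 0.16. The cause was not tested. The share of all features called stands beside these calls in the results. The number of arrays, 3 per diet, limits the precision of every difference.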
